A study of Mus musculus with 8 samples.

Results

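The genes described here are 10 markers of dendritic cells, named by symbol: Ccr7, Itgae, Flt3, Xcr1, Clec9a, Cd209a, Batf3, Zbtb46, Irf8 and Fscn1. All 10 were matched through their Ensembl identifiers and make up 10 of the 54446 gene rows in the tables, of which 21197 had at least 1 count. Counts were found for 9 members, and the same 9 passed the filter on low counts. Irf8 was listed at 0 in all 8 libraries. The libraries were made by CEL-Seq, which reads transcripts near their 3' ends, from RNA of eosinophils sorted in a mouse model of asthma. All came from C57BL/6 mice. Their labels give 3 groups: SiglecFhi/CD101+ eosinophils (n = 2, replicates 1 and 2), Siglec-Fint/CD101- eosinophils (n = 2, replicates 1 and 2) and resident eosinophils (n = 4, replicates 3 to 6), and the study's title places resident eosinophils in the lung. Siglec-F is a lectin for sialic acids carried by eosinophils, and CD101 is a membrane glycoprotein of the immunoglobulin superfamily. The labels name no treatment, age, sex or animal for any library and do not say whether cells of several mice were pooled. Nothing says that replicates came from separate animals, so p-values measure the spread between these libraries, which may be technical.

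Dendritic cells take up antigen in tissues such as the lung, carry it to lymph nodes and present it to T cells. Conventional dendritic cells depend on the growth factor receptor Flt3 and express the zinc finger factor Zbtb46. Their type 1 lineage is built by the transcription factors Irf8 and Batf3 and carries Xcr1, Clec9a and, in lung, the integrin chain CD103. Mature cells of either lineage switch on Ccr7 and Fscn1 before they leave the tissue. Several of these genes are not exclusive to dendritic cells: Ccr7 and Itgae are also T cell genes, Zbtb46 is also expressed in endothelium, and Irf8 in B cells and macrophages.

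Total counts ranged from 1513517 to 3109428 in the 4 subset libraries and from 5600610 to 11583550 in resident libraries. Genes of the mitochondrial genome held 82.2% and 70.6% of the counts in SiglecFhi/CD101+ replicates 1 and 2, 69.9% and 83.9% in Siglec-Fint/CD101- replicates 1 and 2, and 38.6% to 61.8% in resident libraries. Levels are given as CPM, counts scaled to a common library size after TMM normalization, on which 3 counts, the floor used here, equal 1.59 to 2.18 CPM in the subset libraries and 0.199 to 0.501 CPM in resident ones. Log CPM of replicates correlated at a Spearman rho of 0.41 in SiglecFhi/CD101+, 0.43 in Siglec-Fint/CD101- and 0.70 to 0.78 in resident eosinophils, as a description across genes, against 0.38 to 0.55 between libraries of different groups. Of the genes that define the sort and the lineage, Siglecf stood at 10.1 and 26.8 CPM in SiglecFhi/CD101+ libraries, had no count in Siglec-Fint/CD101- libraries and stood at 4.28 to 43.9 CPM in resident libraries. Cd101 stood at 1.06 and 0.61 CPM in SiglecFhi/CD101+, 0 and 0.621 CPM in Siglec-Fint/CD101- and 4.21 to 33.5 CPM in resident libraries. Il5ra had no count in either subset and at most 3.79 CPM in a resident library. Among granule protein genes of eosinophils, Epx had no count in either subset and at most 1.75 CPM in a resident library, whereas Prg2 stood at 38.7 to 235 CPM in SiglecFhi/CD101+, 0.727 to 1.86 CPM in Siglec-Fint/CD101- and 4.95 to 15.9 CPM in resident libraries. The transcript of Siglec-F was thus higher in SiglecFhi/CD101+ than in Siglec-Fint/CD101- libraries, the order of their labels. The gap did not pass the edgeR quasi-likelihood test (adjusted p = 0.235), and no count was found where the label says intermediate. For the transcript of CD101 the subsets overlapped. The groups are called here by their labels.

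Promoter sequences, each of 300 bases ending 50 bases after a transcription start, came from RefSeq on GRCm38.p6 and matched 8 of the 10 members, with none for Ccr7 or Itgae and a pair for Irf8. They were searched on both strands for a PU.1 site (GAGGAAGT), an ETS-IRF composite element (GGAANNGAA), the core of the interferon-stimulated response element (GAAANNGAA), AP-1 (TGANTCA) and NF-kB (GGGANTTTC), motifs of factor families that act in dendritic cells. Of the 9 promoters, 6 held none of them. The 3 that held one are shown with the matches in capitals, beside Xcr1, which held none and had low counts in both SiglecFhi/CD101+ libraries. The Cd209a promoter (chr8:3748935-3749234, minus strand) has an ETS-IRF match at bases -152 to -144 from the start site and another, on the opposite strand, at -8 to 1. The Clec9a promoter (chr6:129408612-129408911, plus strand) has the interferon response core on the opposite strand at -2 to 7. The Zbtb46 promoter (chr2:181424339-181424638, minus strand), at an internal start site of the gene, has an AP-1 match at -61 to -55, and the Xcr1 promoter is chr9:123861980-123862279, minus strand.
Cd209a: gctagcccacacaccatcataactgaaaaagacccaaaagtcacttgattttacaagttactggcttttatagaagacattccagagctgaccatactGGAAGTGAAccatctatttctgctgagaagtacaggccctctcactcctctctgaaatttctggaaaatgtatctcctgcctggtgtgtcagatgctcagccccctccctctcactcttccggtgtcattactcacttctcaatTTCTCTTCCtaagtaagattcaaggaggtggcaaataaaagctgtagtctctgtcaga
Clec9a: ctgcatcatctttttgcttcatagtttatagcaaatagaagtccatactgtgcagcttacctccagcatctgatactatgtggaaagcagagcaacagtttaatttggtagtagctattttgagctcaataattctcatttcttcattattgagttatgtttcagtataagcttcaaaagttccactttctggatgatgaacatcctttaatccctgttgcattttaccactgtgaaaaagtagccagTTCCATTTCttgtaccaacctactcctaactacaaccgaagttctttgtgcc
Zbtb46: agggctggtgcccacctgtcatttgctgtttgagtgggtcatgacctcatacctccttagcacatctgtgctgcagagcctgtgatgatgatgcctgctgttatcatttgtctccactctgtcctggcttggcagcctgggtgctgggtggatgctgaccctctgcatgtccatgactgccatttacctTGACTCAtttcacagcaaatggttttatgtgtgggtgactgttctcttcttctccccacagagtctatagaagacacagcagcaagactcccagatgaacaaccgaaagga
Xcr1: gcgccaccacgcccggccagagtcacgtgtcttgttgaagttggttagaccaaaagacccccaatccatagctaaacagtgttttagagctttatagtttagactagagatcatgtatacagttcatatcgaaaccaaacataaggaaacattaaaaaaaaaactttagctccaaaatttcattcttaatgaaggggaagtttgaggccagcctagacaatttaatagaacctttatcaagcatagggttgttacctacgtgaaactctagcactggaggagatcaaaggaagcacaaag
Among 32851 RefSeq promoters of the same length, 8.2% held the ETS-IRF letters, 8.6% the interferon response core, 7.8% AP-1, 3.2% the PU.1 letters and 1.1% NF-kB. A match describes letters only and is not a binding site.

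Irf8, the interferon regulatory factor that type 1 and plasmacytoid dendritic cells require, was at 0 counts in every library, and its position in the annotation bears on that value. In GENCODE M21 on GRCm38 it spans chromosome 8, bases 120736358 to 120756694, plus strand, wholly inside the predicted gene model Gm20388 on the same strand (119910841 to 124345722). No exon base of Irf8 lies in an exon of Gm20388. Gm20388 itself had 2755 counts, of which SiglecFhi/CD101+ libraries had 267 and 79, Siglec-Fint/CD101- libraries 138 and 114, and resident libraries 172, 987, 441 and 557. Inside its span, 36 of 36 protein-coding genes of the same strand were at 0, against 6 of 35 on the opposite strand. Across the genome, 452 of 452 protein-coding genes lying inside a gene of the same strand were at 0 in all 8 libraries, against 343 of 811 (42.3%) inside a gene of the opposite strand only and 5167 of 20655 (25.0%) inside no other gene. The plot of genes listed at 0 by position shows this contrast. With the settings of the counting step not given in the sources used here, the 0 of Irf8 is a listed value, not a measurement of its RNA.

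**Figure D1:**
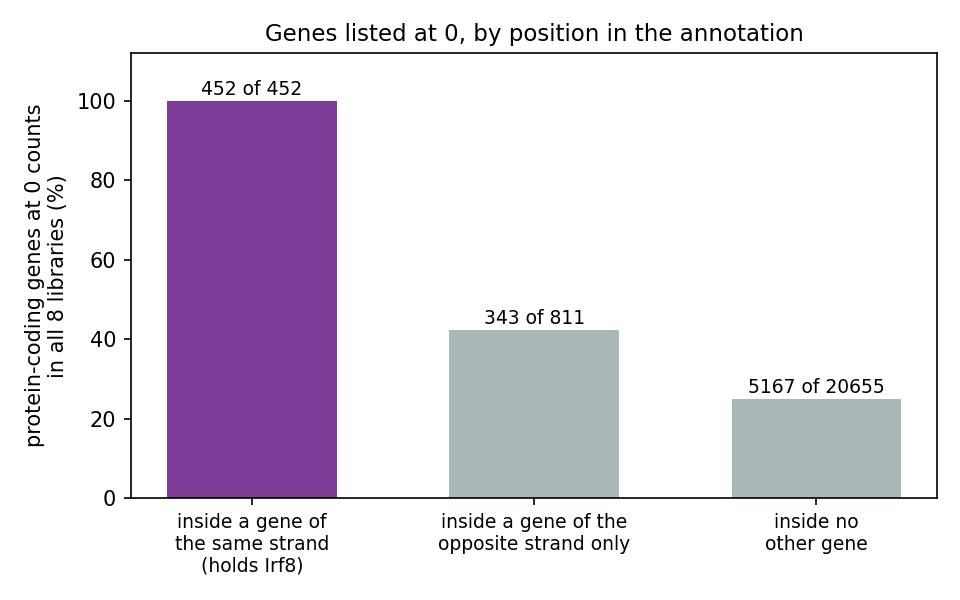
Protein-coding genes at 0 counts in all 8 libraries (y axis, percent) by their position in the annotation (x axis); each bar is a share of the genes in that class, with numbers above it. All 452 genes inside a gene of the same strand, Irf8 among them, were at 0, against 25.0% of the genes inside no other gene.

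The other 9 members lie inside no other gene. Clec9a (chromosome 6, 129408862 to 129424763, plus strand) shares 474 bases, 3.0% of its span, with Clec1b on the same strand, and Cd209a (chromosome 8, 3743397 to 3748984, minus strand) belongs to a family of related lectin genes between which reads may be split. Itgae (chromosome 11, 73090583 to 73147446, plus strand) shares 4.9% of its span with the opposite-strand gene Haspin, which had 14 counts. Their levels are given below by role, as counts or CPM in each library, and the plot of levels by library shows all 9.

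Among members of the type 1 lineage, Xcr1, the receptor for the chemokine XCL1 (chromosome 9, 123852315 to 123862029), had 1 and 2 counts in SiglecFhi/CD101+ libraries (0.53 and 1.22 CPM), 7 and 15 in Siglec-Fint/CD101- libraries (5.09 and 9.31 CPM) and 67, 161, 137 and 312 in resident libraries (11.2, 12.7, 9.60 and 20.7 CPM). The 3 groups did not overlap in CPM, with SiglecFhi/CD101+ lowest and resident highest. At the resident level, 47.8 counts would have stood in the SiglecFhi/CD101+ libraries where 3 did. The level in SiglecFhi/CD101+ eosinophils was 0.0603 of the resident level, with an exact 95% interval of 0.0124 to 0.177 that covers counting error only. Against the spread between libraries this gap did not pass (edgeR quasi-likelihood adjusted p = 0.279).

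Batf3, a partner of Irf8 at genes of the type 1 lineage (chromosome 1, 191097847 to 191108945), was the member with the fewest counts among those detected. It had 1 and 3 counts in SiglecFhi/CD101+ libraries (0.53 and 1.83 CPM), 9 and 0 in Siglec-Fint/CD101- libraries (6.54 and 0 CPM) and 38, 104, 115 and 199 in resident libraries (6.35, 8.18, 8.06 and 13.2 CPM). SiglecFhi/CD101+ libraries lay below every resident library, with a log2 fold change of -2.92 ± 1.92 (SE; edgeR adjusted p = 0.43). In Siglec-Fint/CD101- eosinophils 1 library fell among the resident ones and the other had no count, so no level can be set for that group.

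Clec9a encodes DNGR-1, the receptor by which type 1 dendritic cells sense actin of dead cells. It had 100 and 1 counts in SiglecFhi/CD101+ libraries (53 and 0.61 CPM), 11 and 2 in Siglec-Fint/CD101- libraries (8 and 1.24 CPM) and 60, 11, 221 and 582 in resident libraries (10, 0.865, 15.5 and 38.7 CPM). The highest and the lowest of the 8 values were thus the pair of SiglecFhi/CD101+ replicates, and all groups overlapped. Replicate 1 of SiglecFhi/CD101+ was high for Clec9a while its Xcr1 and Batf3 stood at 1 count each, so these genes of 1 lineage did not move together there. The log2 fold change between SiglecFhi/CD101+ and resident eosinophils was 0.72 ± 1.54 (SE; edgeR adjusted p = 0.855), and it was -4.78 without SiglecFhi/CD101+ replicate 1.

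Itgae encodes CD103, the alpha chain of an integrin that binds E-cadherin on epithelium. It had 0 and 1 counts in SiglecFhi/CD101+ libraries (0 and 0.61 CPM), 12 and 117 in Siglec-Fint/CD101- libraries (8.72 and 72.6 CPM) and 142, 77, 114 and 463 in resident libraries (23.7, 6.05, 7.99 and 30.8 CPM). Both SiglecFhi/CD101+ libraries were below every other library, whereas Siglec-Fint/CD101- libraries lay among the resident ones or above them. At the Siglec-Fint/CD101- level, 143 counts would have stood in the SiglecFhi/CD101+ libraries where 1 did. The level in SiglecFhi/CD101+ eosinophils was 0.00656 of that in Siglec-Fint/CD101- eosinophils (exact 95% interval 0.000165 to 0.0372) and 0.0171 of that in resident eosinophils (0.000432 to 0.0956). Neither gap passed the edgeR quasi-likelihood test (adjusted p = 0.227 and 0.214). Itgae had the smallest p of any member in both comparisons of SiglecFhi/CD101+ eosinophils.

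Cd209a, a DC-SIGN family lectin of type 2 and monocyte-derived dendritic cells in mice, was the member lowest in Siglec-Fint/CD101- eosinophils relative to resident ones. It had 12 and 3 counts in SiglecFhi/CD101+ libraries (6.36 and 1.83 CPM), 3 and 0 in Siglec-Fint/CD101- libraries (2.18 and 0 CPM) and 115, 304, 125 and 363 in resident libraries (19.2, 23.9, 8.76 and 24.1 CPM). All 4 subset libraries lay below all 4 resident libraries. The level in Siglec-Fint/CD101- eosinophils was 0.0532 of the resident level (exact 95% interval 0.0109 to 0.156; p = 0.0408, adjusted p = 0.31, edgeR). In SiglecFhi/CD101+ eosinophils the log2 fold change against resident was -2.2 ± 1.6 (SE; edgeR adjusted p = 0.475).

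**Figure D2:**
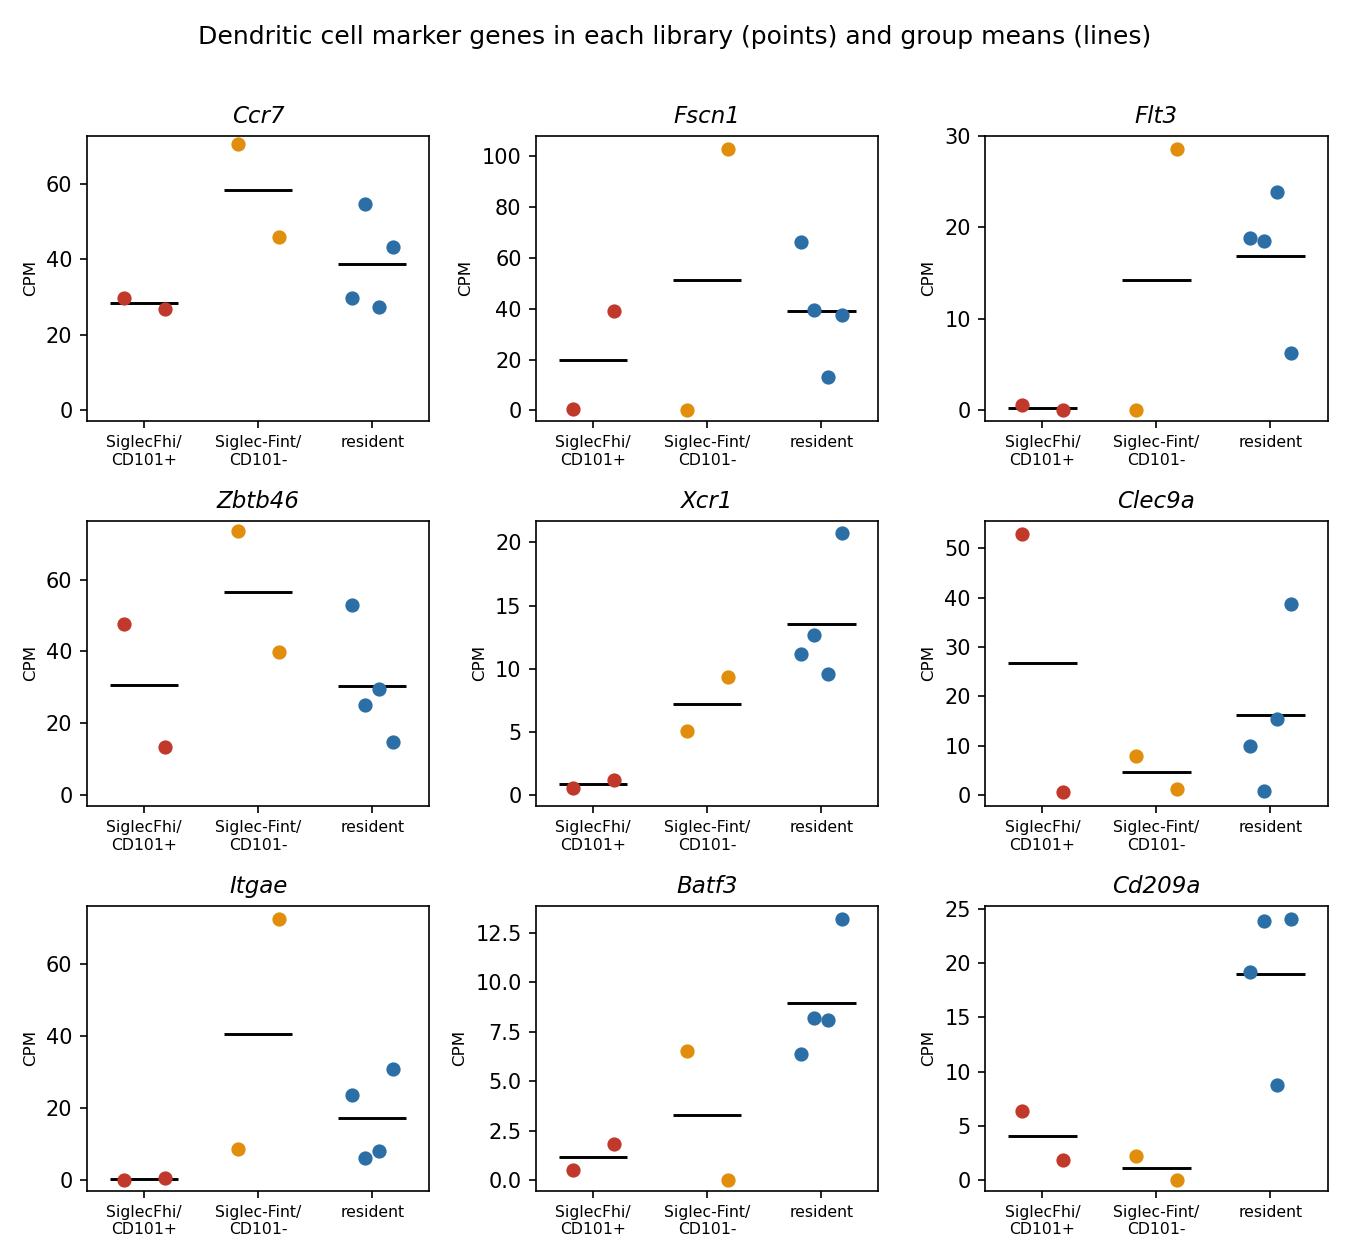
CPM (y axes, linear, each with its own scale) of the 9 detected members in SiglecFhi/CD101+, Siglec-Fint/CD101- and resident eosinophils; points are libraries and lines are group means. Xcr1 forms 3 separate groups, Cd209a is below 8.76 CPM in every subset library, and Fscn1, Clec9a and Itgae are split between replicates of a subset.

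The genes of mature, migrating dendritic cells were present in every group but not in every library. Ccr7, the receptor that guides cells to the lymph node along CCL19 and CCL21 (chromosome 11, 99144196 to 99155077), had 56 and 44 counts in SiglecFhi/CD101+ libraries (29.7 and 26.8 CPM), 97 and 74 in Siglec-Fint/CD101- libraries (70.5 and 45.9 CPM) and 178, 695, 391 and 649 in resident libraries (29.7, 54.6, 27.4 and 43.2 CPM). It was the most even member within groups, and SiglecFhi/CD101+ libraries lay below both Siglec-Fint/CD101- libraries. Against resident libraries, SiglecFhi/CD101+ replicate 1 fell within their range and replicate 2 just under the lowest of them. Its log2 fold change was -0.45 ± 0.84 between SiglecFhi/CD101+ and resident eosinophils and -1.04 ± 0.96 between the subsets (SE, adjusted p = 0.826 and 0.592, edgeR).

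Fscn1 encodes fascin, the actin-bundling protein of mature dendritic cells (chromosome 5, 142960343 to 142973185), and it split both subsets. It had 1 and 64 counts in SiglecFhi/CD101+ libraries (0.53 and 39.0 CPM), 0 and 166 in Siglec-Fint/CD101- libraries (0 and 103 CPM) and 397, 504, 186 and 566 in resident libraries (66.3, 39.6, 13 and 37.6 CPM). In each subset 1 library was near or at 0 and the other was within or above the resident range, so the group means of 19.8 ± 27.2 CPM in SiglecFhi/CD101+ and 51.5 ± 72.9 CPM in Siglec-Fint/CD101- eosinophils (SD, n = 2 each) describe neither library. The resident mean was 39.2 ± 21.8 CPM (SD, n = 4), and no comparison of Fscn1 passed (adjusted p = 0.791, 0.914 and 0.715, edgeR).

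Of the genes shared by conventional dendritic cells, Flt3, the receptor for the growth factor FLT3L (chromosome 5, 147330741 to 147400489), had 1 and 0 counts in SiglecFhi/CD101+ libraries (0.53 and 0 CPM), 0 and 46 in Siglec-Fint/CD101- libraries (0 and 28.6 CPM) and 113, 235, 341 and 94 in resident libraries (18.9, 18.5, 23.9 and 6.25 CPM). Both SiglecFhi/CD101+ libraries were below all resident libraries, at 0.0174 of the resident level (exact 95% interval 0.00044 to 0.0972; p = 0.0241, adjusted p = 0.249, edgeR). The Siglec-Fint/CD101- libraries held both the highest value of all and a 0. The gene of its ligand, Flt3l, was listed at 0 in all 8 libraries, as was the XCR1 ligand gene Xcl1. Neither lies wholly inside a gene of the same strand, but partial overlaps were not looked up for them. Their 0 is a listed value, not a measurement of RNA.

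Zbtb46, a repressor that marks conventional dendritic cells among myeloid cells (chromosome 2, 181387762 to 181459426), had 90 and 22 counts in SiglecFhi/CD101+ libraries (47.7 and 13.4 CPM), 101 and 64 in Siglec-Fint/CD101- libraries (73.4 and 39.7 CPM) and 316, 319, 420 and 221 in resident libraries (52.8, 25.1, 29.4 and 14.7 CPM). It was counted in every library and its groups overlapped. The log2 fold change was 0.01 ± 0.93 between SiglecFhi/CD101+ and resident eosinophils and 0.89 ± 0.90 between Siglec-Fint/CD101- and resident eosinophils (SE, adjusted p = 0.999 and 0.619, edgeR), and the sign of the first turned under 6 of the alternatives tried. Summed markers of endothelial cells, which also express Zbtb46, ranged over 283 to 298 CPM in SiglecFhi/CD101+, 315 to 521 CPM in Siglec-Fint/CD101- and 121 to 475 CPM in resident libraries, and their part in its level was not tested.

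Summed over the list, the marker level was 138.9 and 85.38 CPM in SiglecFhi/CD101+ libraries, 174.5 and 300.5 CPM in Siglec-Fint/CD101- libraries and 238.3, 189.5, 143.7 and 229.3 CPM in resident libraries. Both SiglecFhi/CD101+ libraries lay below all others, with a mean of 112.1 ± 37.8 CPM (SD, n = 2), against 237.5 ± 89.1 CPM in Siglec-Fint/CD101- (n = 2) and 200.2 ± 43.2 CPM in resident eosinophils (n = 4). With library totals alone, without TMM factors, the means were 89.1 CPM in SiglecFhi/CD101+, 160 CPM in Siglec-Fint/CD101- and 262 CPM in resident eosinophils, so that the order of Siglec-Fint/CD101- and resident eosinophils turned with the scaling. These are sorted bulk samples, in which fewer cells of a type and less RNA per cell cannot be told apart. The genes that made up the sum differed between replicates. Ccr7, Fscn1 and Zbtb46 together gave 56.1% and 92.9% of it in SiglecFhi/CD101+ replicates 1 and 2, 82.5% and 62.8% in Siglec-Fint/CD101- replicates 1 and 2, and 41.6% to 63.0% in resident libraries. Clec9a alone gave 38.2% in SiglecFhi/CD101+ replicate 1 and 0.7% in replicate 2, while Fscn1 gave 0.4% in replicate 1 and 45.7% in replicate 2.

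**Figure D3:**
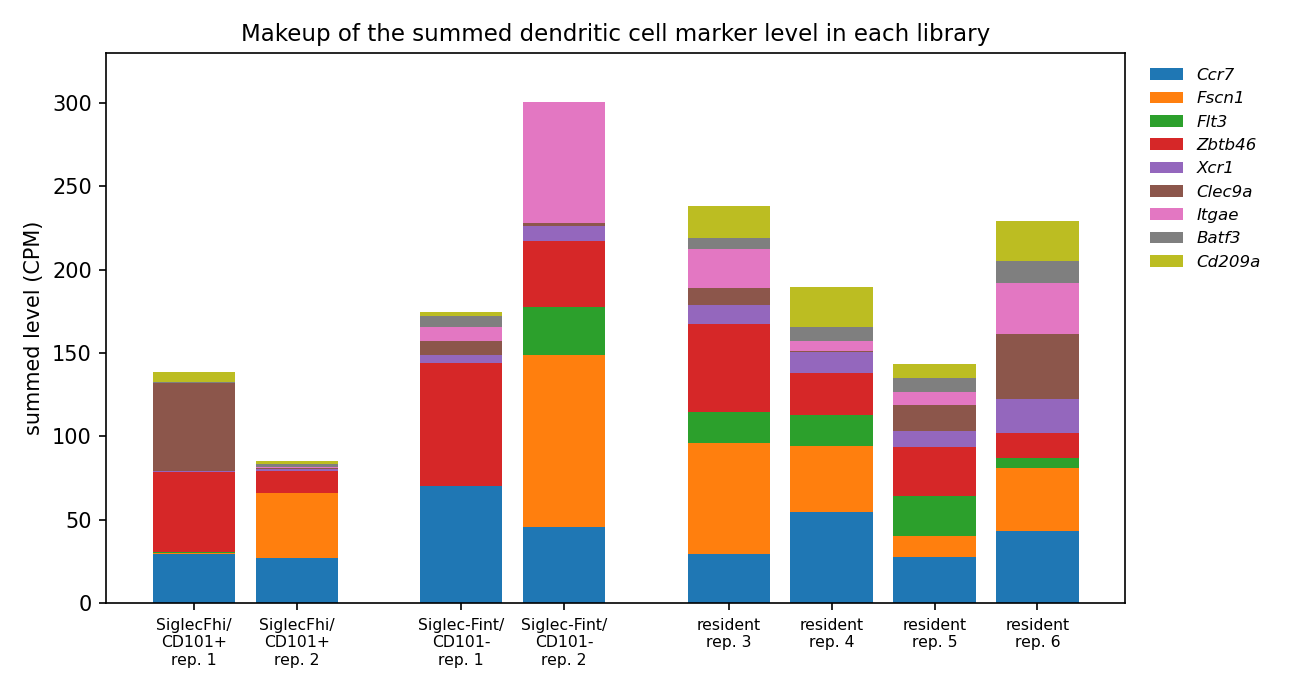
Summed CPM of the dendritic cell marker genes (y axis) in each library (x axis), stacked by gene. The SiglecFhi/CD101+ sums of 138.9 and 85.38 CPM are the lowest, Clec9a fills 38.2% of SiglecFhi/CD101+ replicate 1 and 0.7% of replicate 2, and each resident bar holds all 9 detected members.

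All 9 detected members had counts in each of the 4 resident libraries, against 8 in each SiglecFhi/CD101+ library and 7 in each Siglec-Fint/CD101- library. Of the 21197 genes with a count, resident libraries detected 12700 to 15997. SiglecFhi/CD101+ replicates 1 and 2 detected 10834 and 9238, and Siglec-Fint/CD101- replicates 1 and 2 detected 7356 and 8514. Replicates of the subsets disagreed by more than counting error for several members. In SiglecFhi/CD101+ eosinophils Clec9a was 86.9-fold higher in replicate 1 than in replicate 2 (exact 95% counting interval 15.2 to 3470), and Fscn1 was 73.6-fold higher in replicate 2 than in replicate 1 (12.7 to 2950). In Siglec-Fint/CD101- eosinophils Fscn1 was at least 47.3-fold and Flt3 at least 13.1-fold higher in replicate 2 than in replicate 1, against a floor of 3 counts in that library, and Itgae was 8.33-fold higher (4.59 to 16.6). Ccr7 differed little, with 1.11-fold in SiglecFhi/CD101+ (0.732 to 1.68) and 1.53-fold in Siglec-Fint/CD101- eosinophils (1.12 to 2.11). If reads rather than molecules were counted, these intervals are too narrow.

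In the comparison of SiglecFhi/CD101+ with resident eosinophils, 0 of the 9 tested members passed the edgeR quasi-likelihood test at an adjusted p under 0.05, a rule that called 3 of 11828 genes (0.0254%). At an unadjusted p under 0.05, Itgae, Flt3 and Xcr1 were lower, 3 of 9 members beside 13.1% of all genes tested. In 5 of 9 members, Itgae, Flt3, Xcr1, Cd209a and Batf3, the SiglecFhi/CD101+ libraries lay below all resident libraries, as they did in 27.4% of all genes. The median log2 fold change was -2.20 over the members tested and -0.72 over all genes tested. DESeq2 called Itgae (adjusted p = 0.0358) and Xcr1 (adjusted p = 0.0347) lower, with 6.56% of its genes called lower. Over the other fits tried the adjusted p of Itgae ranged up to 0.394 and that of Xcr1 up to 0.462, and limma-voom called 0 of 9 members.

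In the comparison of Siglec-Fint/CD101- with resident eosinophils, 0 of 9 members passed edgeR's adjusted threshold, which 0.0592% of genes passed. Cd209a was the 1 member lower at an unadjusted p under 0.05, beside 13.8% of genes. Both Siglec-Fint/CD101- libraries lay below all resident libraries for Xcr1 and Cd209a, 2 of 9 members, and for 29.3% of genes. The median log2 fold change was -0.24 over the members tested and -1 over all genes. DESeq2 called Cd209a lower (adjusted p = 0.0463, with up to 0.53 over the other fits), beside 7.06% of its genes, and limma-voom called 0 members. Both comparisons share the 4 resident libraries.

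Between the subsets, 0 of 9 members passed edgeR's adjusted threshold, which 1 of 11828 genes passed (0.00845%). Itgae and Flt3 were lower in SiglecFhi/CD101+ eosinophils at an unadjusted p under 0.05, beside 7.96% of genes, and no member was higher, beside 9.98%. Both SiglecFhi/CD101+ libraries lay below both Siglec-Fint/CD101- libraries for Ccr7, Itgae and Xcr1, beside 11.9% of genes, and above them for no member, beside 15.8%. The median log2 fold change was -1.39 over the members tested and 0 over all genes tested. DESeq2 called Itgae lower (adjusted p = 0.00692, with up to 1 over the other fits), beside 6.59% of its genes, and limma-voom called 0 members. For Flt3 the direction rested on 1 library, with a log2 fold change of 4.06 without Siglec-Fint/CD101- replicate 2.

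**Figure D4:**
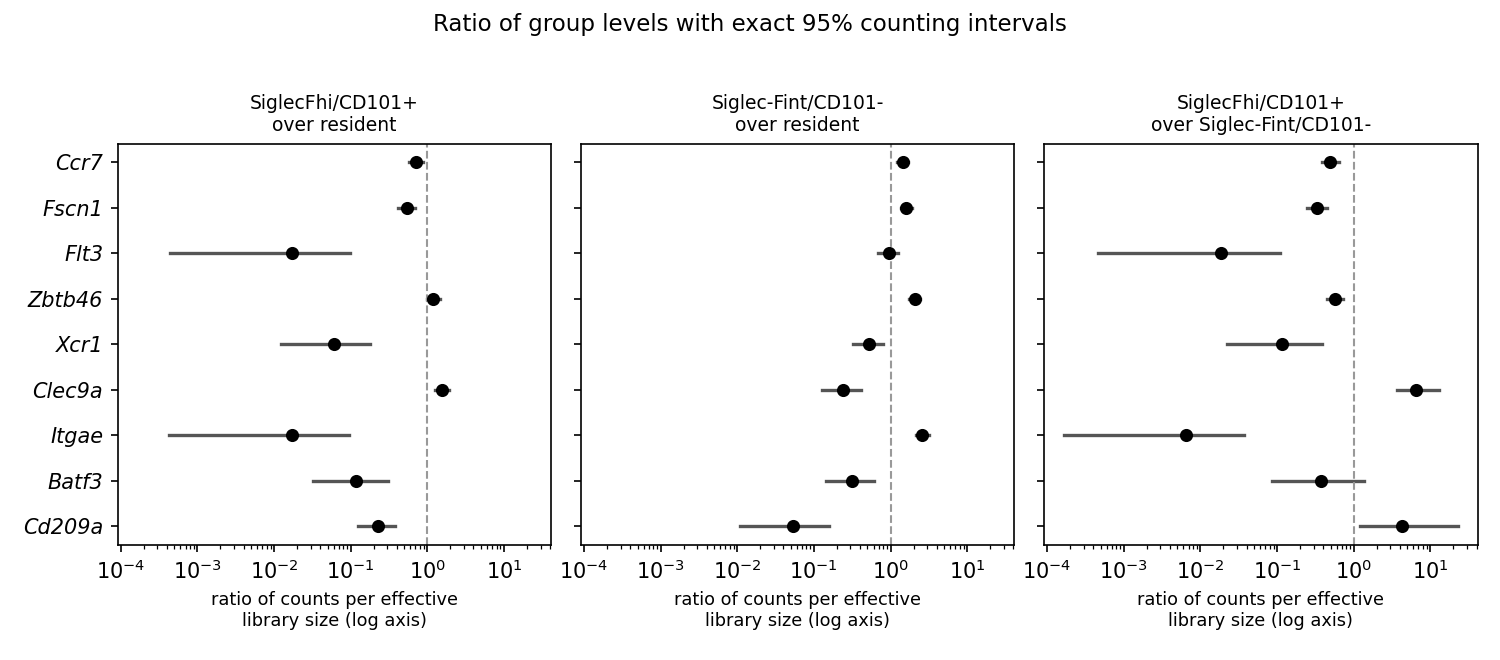
Ratio of group levels (x axes, log scale) for the 9 detected members in SiglecFhi/CD101+ over resident, Siglec-Fint/CD101- over resident and SiglecFhi/CD101+ over Siglec-Fint/CD101- eosinophils; points are ratios of summed counts per effective library size and bars exact 95% intervals, which cover counting error only. Itgae and Flt3 stand at 0.0171 and 0.0174 in the left panel and Cd209a at 0.0532 in the middle panel, while no member passed the edgeR test against the spread between libraries.

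Other genes of the same cells were read from lists, and edgeR called 0 genes of every list in each comparison. Of 12 further genes of type 1 dendritic cells, 3 were lower in SiglecFhi/CD101+ eosinophils than in resident ones at an unadjusted p under 0.05, beside 13.1% of all genes tested, and the median log2 fold change was -2.19 over the list and -0.72 over all genes. Among them was Wdfy4, required for cross-presentation, at 15.2 ± 14.5 CPM (SD, n = 2) against 68.7 ± 29.5 CPM in resident eosinophils (n = 4; adjusted p = 0.277). Of 11 tested genes of type 2 and monocyte-derived dendritic cells, 1 was lower, beside the same 13.1%, so that the count did not stand above that of all genes. It was the lectin gene Mgl2, at 45.3 ± 49.8 CPM against 315 ± 143 CPM (adjusted p = 0.159, edgeR). In Siglec-Fint/CD101- eosinophils 2 of the 11 were lower than in resident ones, beside 13.8% of all genes. There the related lectin gene Clec10a had 0 counts, against 18.7 ± 15 CPM in resident eosinophils (adjusted p = 0.288, edgeR). Clec10a averaged 3.62 ± 4.37 CPM in SiglecFhi/CD101+, and Mgl2 averaged 157 ± 85.7 CPM in Siglec-Fint/CD101- eosinophils (SD, n = 2 each).

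Of 22 further genes of mature migratory dendritic cells, 7 were lower in SiglecFhi/CD101+ eosinophils than in resident ones at an unadjusted p under 0.05, beside 13.1% of all genes. At that threshold 0 of them were higher. The median log2 fold change was -1.47 over the list and -0.72 over all genes tested. In Siglec-Fint/CD101- eosinophils 4 of the 22 were lower, beside 13.8% of all genes, a share near that background. The activation marker Cd83 had 68.4 ± 6.76 CPM in SiglecFhi/CD101+ (n = 2), 111 ± 5.13 CPM in Siglec-Fint/CD101- (n = 2) and 305 ± 107 CPM in resident eosinophils (SD, n = 4), with an adjusted p of 0.13 between the first and the last (edgeR). The costimulatory ligand gene Cd86 had 8.13 ± 2 CPM in SiglecFhi/CD101+ and 88.2 ± 36.4 CPM in resident eosinophils (adjusted p = 0.146, edgeR). Ccl17, a chemokine gene of type 2 responses, had 18.5 ± 4.59 CPM in SiglecFhi/CD101+ and 137 ± 53.1 CPM in resident eosinophils (adjusted p = 0.197, edgeR). Not every gene of the list was lower. Socs2 averaged 90.1 ± 26.1 CPM in SiglecFhi/CD101+ and 53.2 ± 32.5 CPM in resident eosinophils. Cd200 had 27.6 and 65.3 CPM in SiglecFhi/CD101+ libraries and 7.63 to 31.6 CPM in resident ones.

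Partners of the members were read in the same way. Cdh1 encodes E-cadherin, the epithelial ligand of CD103, and averaged 0.305 CPM in SiglecFhi/CD101+ (1 count), 51.4 CPM in Siglec-Fint/CD101- and 27.6 CPM in resident eosinophils (adjusted p = 0.172 between the subsets and 0.13 against resident, edgeR). The gene of the beta chain that pairs with CD103, Itgb7, had 12.5 ± 0.434 CPM in SiglecFhi/CD101+ and 86.8 ± 47.6 CPM in Siglec-Fint/CD101- eosinophils (SD, n = 2 each, adjusted p = 0.239, edgeR). Batf, which can stand in for Batf3 in mice, had 0 counts in SiglecFhi/CD101+ libraries and averaged 8.66 CPM in Siglec-Fint/CD101- and 19.5 CPM in resident eosinophils (adjusted p = 0.149 against resident, edgeR). Of the 12 tested ligands and partners, 7 were lower in SiglecFhi/CD101+ eosinophils than in resident ones at an unadjusted p under 0.05, beside 13.1% of all genes. The list is not limited to genes of dendritic cells. Among the 7 were the actin gene Actb, at 1410 ± 184 against 3170 ± 879 CPM, and Spi1, the gene of PU.1, at 103 ± 72.7 against 337 ± 109 CPM (SD). Their adjusted p were 0.221 and 0.214 (edgeR).

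Genes of other cell types varied beside the members. Summed T cell markers stood at 124 to 439 CPM in SiglecFhi/CD101+, 148 to 247 CPM in Siglec-Fint/CD101- and 7.35 to 38.9 CPM in resident libraries. The T cell genes Cd3e and Cd3g had at most 3 counts in any subset library, Cd3d had 34 in Siglec-Fint/CD101- replicate 1 and at most 4 in the other subset libraries, and the sums came mainly from Cd4, Trac and Trbc2. Summed B cell markers stood at 140 to 614, 424 to 821 and 98.5 to 219 CPM in the same order of groups, and macrophage markers at 282 to 393, 375 to 1150 and 419 to 826 CPM. Summed MHC class II genes, which dendritic cells, macrophages and B cells all express, stood at 6500 to 8080 CPM in SiglecFhi/CD101+, 11200 to 20900 CPM in Siglec-Fint/CD101- and 16300 to 51700 CPM in resident libraries. Summed eosinophil markers stood at 149 to 454 CPM in SiglecFhi/CD101+, 164 to 296 CPM in Siglec-Fint/CD101- and 188 to 464 CPM in resident libraries. Of these sums, Ear2 gave 46.7 and 120 CPM in SiglecFhi/CD101+, 153 and 92.5 CPM in Siglec-Fint/CD101- and 125 to 291 CPM in resident libraries. In Siglec-Fint/CD101- replicate 1, Ear2 gave most of the sum, and Epx, Siglecf and Cd101 had no count. The part of these cells in the members' levels was not tested.

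The genes whose log2 CPM followed a member most closely over the 8 libraries, among tested genes at or above the median level, were Spint1, Dlgap4 and Nabp1 for Xcr1 (Pearson r = 0.973, 0.970 and 0.967), Tlk2, Snx9 and Smarca5 for Cd209a (0.983, 0.981 and 0.980) and Rpl29, Rps2 and Ldha for Ccr7 (0.962, 0.929 and 0.923). Each trio was picked as the highest of many correlations over libraries that share depth and group, and is given as a description.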

How the data were processed

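The authors deposited 1 table per library of whole-number counts per Ensembl gene, unnormalized. HTSeq 0.6.1, TopHat2 2.1.0, Bowtie2 2.2.6, cutadapt 1.10 run by Trim Galore, DESeq2 1.28.0 and FastQC 0.11.5 are listed in the submitters' processing notes. Build, annotation, strand setting and treatment of molecular identifiers were not given in the sources used here. CEL-Seq counts come from transcript ends, and copies made in amplification would widen the spread between libraries.

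Symbols and positions came from GENCODE M21 on GRCm38 (54409 of 54446 rows matched). In R 4.3.3, edgeR 4.0.16 fitted group means over all 8 libraries (TMM, filterByExpr, robust quasi-likelihood, two-sided, Benjamini-Hochberg over 11828 genes); the common biological coefficient of variation was 1.12. DESeq2 1.42.0, limma-voom (limma 3.58.1), other scalings and filters, leaving out each library and a replicate block were alternatives. Of these fits, only the edgeR comparison of SiglecFhi/CD101+ with resident eosinophils was tried on simulated counts. Count ratios carry exact 95% intervals. Members and lists were chosen with earlier results of these data known. All members are named. From each list, up to 4 genes with the smallest p in a comparison may be named. Siglecf, Cd101, Il5ra and Epx may be named too, and the 3 genes of the most similar pattern for up to 3 members. Other genes (Clec1b, Haspin, Gm20388, Flt3l, Xcl1, Itgam, Prg2, Cd200 and T cell genes) were chosen after their values were seen.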

Additional observations from a re-analysis of the deposited data

How the results depend on the processing

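Results are limited by depth, since a count of 3 equals 1.59 to 2.18 CPM in subset libraries, by 2 libraries per subset that disagree, and by scaling. No member was called by edgeR under any normalization, filter or left-out library. DESeq2 called 2 members in SiglecFhi/CD101+ against resident, 1 in Siglec-Fint/CD101- against resident and 1 between the subsets; the cause was not tested. Same-numbered subset libraries did not deviate together (r = 0.01). With 2 libraries per subset that disagree, this value cannot show whether same-numbered libraries shared an animal or a sort. A replicate block on the 4 subset libraries, in which 6 members were tested, called 0 of the members. Of the members' other fold changes under alternatives, 461 kept direction and side of the threshold, 4 passed it with DESeq2 and 24 turned sign. Turned values are log2 fold changes, the cause was not tested. SiglecFhi/CD101+ against resident: Ccr7 0.02 with DESeq2 and with RLE factors; Clec9a -0.35 with limma-voom and -0.49 with library totals; Zbtb46 -0.86 with library totals and -0.05 without a filter. Siglec-Fint/CD101- against resident: Ccr7 -0.19 with library totals, Flt3 0.12 with DESeq2 and with RLE factors, Fscn1 -2.28 with limma-voom and -0.77 with library totals. Over fits that each left out 1 replicate, the range for SiglecFhi/CD101+ against resident was -4.78 to 1.75 for Clec9a (lowest without SiglecFhi/CD101+ replicate 1) and -1.26 to 0.55 for Zbtb46. For Siglec-Fint/CD101- against resident it was -0.99 to 2.03 for Itgae, -10 to 0.71 for Flt3 and -11.21 to 1.34 for Fscn1, with the lowest value of each without Siglec-Fint/CD101- replicate 2. Between the subsets it was -9.72 to 4.06 for Flt3, -2.94 to 4.36 for Clec9a, -2.65 to 6.08 for Batf3 and -6.61 to 10.14 for Fscn1. The median log2 fold change of all genes moved with the scaling, between -1.46 (library totals) and -0.25 (DESeq2) for SiglecFhi/CD101+ and between -1.96 and -0.6 for Siglec-Fint/CD101- against resident. With the mitochondrial genome left out, the mean summed level was 365 CPM in SiglecFhi/CD101+, 754 CPM in Siglec-Fint/CD101- and 611 CPM in resident eosinophils, as fewer counts then make up a library. With library totals alone it was 89.1 CPM in SiglecFhi/CD101+, 160 CPM in Siglec-Fint/CD101- and 262 CPM in resident eosinophils, which turns the order of Siglec-Fint/CD101- and resident. Over all genes, the comparison of SiglecFhi/CD101+ with resident eosinophils gave 3 calls by edgeR, 253 higher and 117 lower genes by edgeR without a filter, and 312 higher and 628 lower genes by DESeq2.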

Other observations

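Further genes of dendritic cell growth and cytokine production were read as values, and none passed edgeR's adjusted threshold. Of 16 growth factor receptors and transcription factors, 6 were lower in SiglecFhi/CD101+ eosinophils than in resident ones at an unadjusted p under 0.05, beside 13.1% of all genes tested, and 1 was higher, beside 432 of 11828 genes. The higher gene, L3mbtl3, averaged 185 ± 55.2 CPM in SiglecFhi/CD101+ and 9.35 ± 5.69 CPM in resident eosinophils (SD, adjusted p = 0.11, edgeR). It had no count in Siglec-Fint/CD101- libraries (adjusted p = 0.0918 between the subsets, edgeR). In 13 of the 16 the SiglecFhi/CD101+ libraries lay below all resident ones, beside 27.4% of all genes. Kit, the stem cell factor receptor, averaged 0.57 ± 0.0563 CPM in SiglecFhi/CD101+ (2 counts, n = 2), 22.2 ± 9.84 CPM in Siglec-Fint/CD101- (n = 2) and 18.4 ± 3.67 CPM in resident eosinophils (SD, n = 4; adjusted p = 0.21 between the first and the last, edgeR). The interleukin 12 subunit gene Il12b had 0 counts in Siglec-Fint/CD101- libraries and 26.5 ± 26.9 CPM in resident libraries (SD, n = 4; adjusted p = 0.276, edgeR). In SiglecFhi/CD101+ libraries Il12b stood at 1.59 and 0.61 CPM, also below the resident range of 6.29 to 65.7 CPM. Socs2, a feedback inhibitor of cytokine receptors, averaged 90.1 ± 26.1 CPM in SiglecFhi/CD101+ and 5.97 ± 4.93 CPM in Siglec-Fint/CD101- eosinophils (SD, n = 2 each; adjusted p = 0.214, edgeR), the reverse order of Cd86, at 8.13 ± 2 CPM and 37.6 ± 4.81 CPM in these groups (adjusted p = 0.259, edgeR). Of 9 tested genes of plasmacytoid dendritic cells, 0 were higher and 0 were lower in SiglecFhi/CD101+ eosinophils than in resident ones at an unadjusted p under 0.05, beside 13.1% of all genes that were lower, and 1 was lower in Siglec-Fint/CD101- than in resident eosinophils, beside 13.8%. That gene, Runx2, had 2 counts in Siglec-Fint/CD101- libraries and 12.7 ± 7.55 CPM in resident ones (adjusted p = 0.312, edgeR), and it was also the 1 gene higher in SiglecFhi/CD101+ than in Siglec-Fint/CD101- eosinophils, beside 9.98% of all genes. Tlr7, a sensor of viral RNA, was the 1 gene higher in Siglec-Fint/CD101- than in resident eosinophils, beside 225 of 11828 genes, at 33.8 ± 47.8 CPM (SD, n = 2) and 0.339 ± 0.42 CPM (n = 4; adjusted p = 0.288, edgeR). This rested on 1 library, with 93 counts of Tlr7 in Siglec-Fint/CD101- replicate 1 and 0 in replicate 2. The integrin gene Itgam, which marks type 2 dendritic cells and most myeloid cells, was listed at 0 in all 8 libraries. It lies wholly inside no gene of the same strand, but partial overlaps were not looked up for Itgam. Its 0 is likewise a listed value, not a measurement of its RNA.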
